A study of Mus musculus with 6 samples.

Results

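Wnt signalling genes were followed in differentiating mouse embryonic stem (ES) cells in which Atad2, a bromodomain AAA ATPase of active chromatin, had been knocked down. The set was a list of 45 genes for Wnt ligands, receptors, cytoplasmic relay proteins, TCF/LEF factors, feedback and target genes and secreted inhibitors, and a probe belonged to it when the platform annotation gave it the current or an older symbol of a listed gene. Of the 45 genes, 44 had at least 1 probe and 35 were measured, meaning that a probe was detected above background (detection p under 0.05) on at least 3 of the 6 arrays. These 35 stood among 10072 genes measured in all. The probes of Wnt11, Fzd1, Fzd4, Lgr4, Lgr5, Dkk1, Sfrp5, Dvl3 and Znrf3 did not reach this level, and Tcf7 had no probe with its symbol here.

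In both groups the cells were Atad2-tagged ES cells, from 1 clone in which a tag was knocked in at the end of the endogenous Atad2 gene. They were transduced with a lentiviral pLKO.1 vector for a short hairpin RNA against Atad2 (shAtad2) or for a control hairpin (shCtrl), which the labels call non-targeting and the methods inactive, and were selected with puromycin for 5 days and kept as pools. RNA of both groups was taken on day 3 after LIF (leukaemia inhibitory factor), which holds mouse ES cells undifferentiated, had been withdrawn, when the cells form embryoid bodies. Each group held 3 samples, each read on 1 Illumina MouseWG-6 v2.0 array, and nothing in the labels ties a sample to a culture of its own, so the spread between samples may be technical. A single hairpin was used against Atad2, so effects of the hairpin and of the knockdown cannot be told apart.

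In the canonical Wnt pathway a ligand binds a Frizzled receptor and an Lrp5 or Lrp6 co-receptor, Dishevelled is recruited, and the complex of Axin, Apc and Gsk3 no longer marks beta-catenin for destruction. Beta-catenin then enters the nucleus and acts on genes bound by TCF/LEF factors, among them feedback inhibitors of the pathway itself. In mouse ES cells this signal weakens the repressor Tcf7l1 and favours self-renewal, and when the cells leave pluripotency, as in the gastrulating embryo, it drives formation of the primitive streak and mesoderm.

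Values below are normalized log2 intensity of the brightest detected probe of a gene, and a change is the shAtad2 mean less the shCtrl mean, given with its standard error (SE) from limma. Between 39.3% and 40.9% of 45281 probes were detected per array. Atad2 itself was lower on all 3 shAtad2 arrays, with a change of -0.80 (SE 0.14), 1.74-fold, which did not pass after adjustment over all genes (adjusted p = 0.310, and 0.0927 with the replicate number as a block). The size of this change depended on the treatment of background, being -0.29 without background correction and on the authors' processed intensity, and -0.52 with offset 50. Replicate 3 of each group lay far from the remaining 4 arrays on the first principal component (26.1 and 26.8 against -15.4 to -11.9), which held 48.0% of the variance. For genes whose change depends on these arrays, the value without them is given too. All 10 measured marker genes of ES cells, among them Pou5f1 and Nanog, were detected, and their summed log2 level was 15.2 to 15.3 in shAtad2 and 15.4 to 15.6 in shCtrl. A summed level is the log2 of the sum of linear values, so the brightest genes weigh most in it. The mean log2 level of these genes overlapped between the groups (9.73 to 10.16 in shAtad2, 10.04 to 10.27 in shCtrl).

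Differences in Wnt pathway genes between shAtad2 and shCtrl went in both directions. The Wnt antagonist gene Sfrp1 and the Wnt target Lbh were each about 1 log2 unit higher in shAtad2, and the destruction complex and most receptors differed little. All 7 measured ligand genes and the ligand-processing gene Porcn were lower on average. For Wnt3, Wnt5a, Wnt6 and Wnt8a, however, the direction turned when single arrays were left out. No single gene of the set passed the adjusted threshold. Of the 35 genes 17 were higher and 18 lower (50.3% of all genes were lower), with a median change of -0.040 against -0.0012 over all genes. By limma 0 of the 35 had an adjusted p under 0.05, as for all genes (0% called), and 0 of the 35 passed with the replicate block, where 0.0993% of all genes did. At an unadjusted p under 0.05, 4 of the 35 genes were higher (4.12% of all genes were) and 1 was lower (3.8% of all genes). With the replicate block these counts were 4 higher (6.54% of all genes) and 8 lower (6.9% of all genes). The 3 shAtad2 arrays lay above all 3 shCtrl arrays for 4 of the 35 genes (6.94% of all genes) and below them for 2 (6.59%). A difference of at least 2-fold was seen in 2 of the 35 genes and in 0.248% of all genes.

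**Figure D1:**
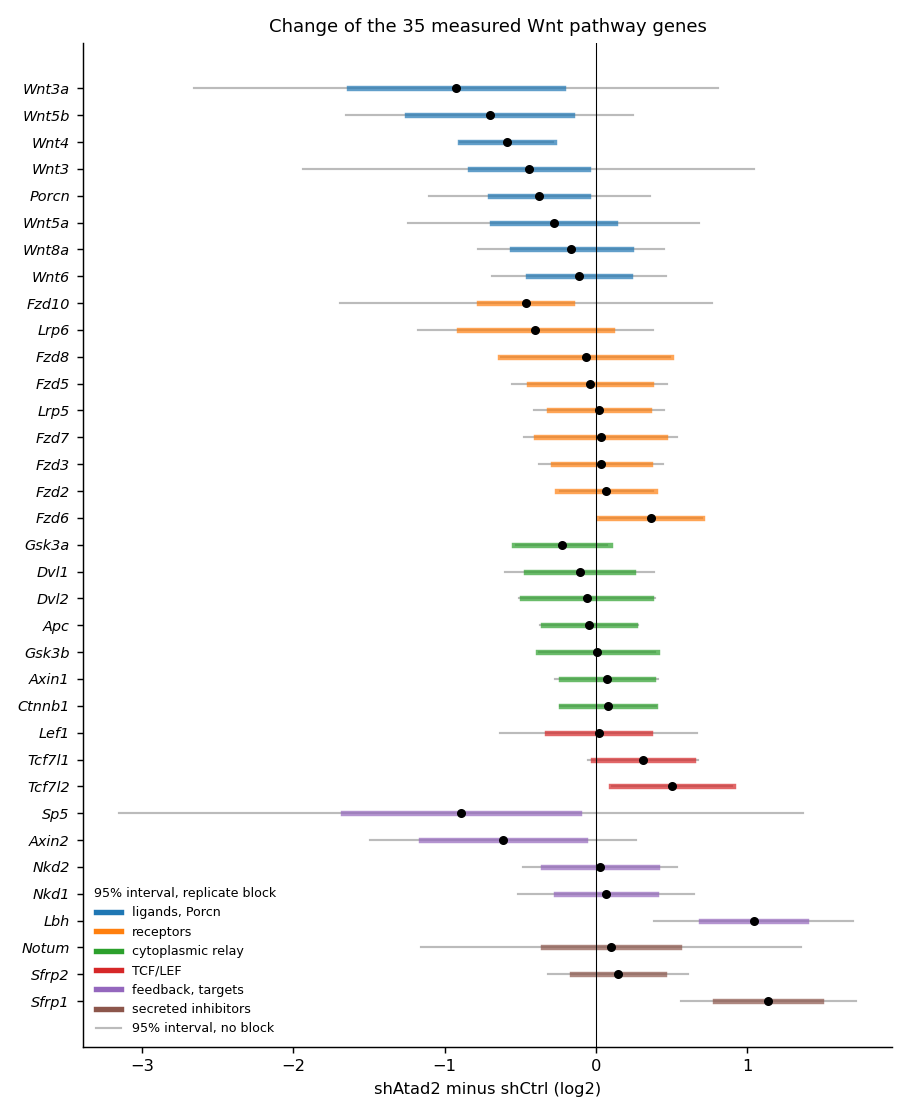
Change of each measured Wnt pathway gene between shAtad2 and shCtrl (log2, horizontal axis), grouped by role. Points are the differences of the means of 3 arrays, thick coloured lines the 95% intervals of the fit with the replicate block and thin grey lines those of the fit without it. Sfrp1 (1.14) and Lbh (1.04) lie farthest to the right, and the 7 ligand genes and Porcn all lie left of 0.

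The ligands were examined first. Wnt3 and Wnt3a are closely related canonical ligands, Wnt3 being needed in the mouse to form the primitive streak and Wnt3a to form posterior mesoderm. Wnt3 read 7.34, 7.73 and 5.47 on shCtrl arrays 1, 2 and 3, and 7.02, 6.86 and 5.32 on shAtad2 arrays 1, 2 and 3. The third replicate was low in both groups, so the groups overlap, but within each replicate number shAtad2 was the lower array. The change was -0.44 (SE 0.64, unadjusted p = 0.510), and with the replicate block its SE was 0.17 (unadjusted p = 0.0305, adjusted p = 0.316). Without the third replicates it was -0.59. Wnt3a read 7.16, 6.79 and 4.42 in shCtrl and 6.32, 4.88 and 4.41 in shAtad2. It was detected on 2 shCtrl arrays and 1 shAtad2 array, and replicate 3 lay at the same low level in both groups. Its differences by replicate number were -0.84, -1.91 and -0.02, with a mean of -0.92 (block SE 0.31, unadjusted p = 0.0172, adjusted p = 0.262), and was -1.38 without the third replicates.

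Wnt5a and Wnt5b act largely through non-canonical routes that steer cell movement. Wnt5b read 7.95, 7.97 and 6.38 in shCtrl and 6.92, 6.83 and 6.45 in shAtad2. Replicates 1 and 2 differed by -1.03 and -1.15 and the third by 0.07, which leaves a mean of -0.70 (SE 0.41, unadjusted p = 0.125, and block SE 0.23, unadjusted p = 0.0177). Without the third replicates of both groups the change of Wnt5b was -1.09 (adjusted p = 0.0996). Wnt5a, detected on 2 arrays of each group, differed by -0.28, -0.69 and 0.14 in the 3 replicate numbers, and by -0.49 without the third. Wnt3, Wnt3a, Wnt5a and Wnt5b thus shared a pattern, with shAtad2 lower in replicates 1 and 2 and both groups low and close together in replicate 3. This sharing was noticed after the values were seen and was not tested.

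Wnt4, a ligand of kidney and gonad formation, behaved otherwise. It read 5.69, 5.83 and 5.97 in shCtrl and 5.21, 5.30 and 5.21 in shAtad2. All shAtad2 arrays lay below all shCtrl arrays, and the third replicates did not stand apart for this gene. The change of -0.59 (SE 0.13) was the only one of a ligand gene to reach by limma an unadjusted p under 0.05 without the block (unadjusted p = 0.0024). After adjustment over all genes p was 0.348 without the block and 0.127 with it. The probe is dim though detected on all arrays, and a second probe, under the detection filter, differed by -0.35. Leaving out single arrays moved the Wnt4 change between -0.66 and -0.52, but it was -0.18 without background correction and on the authors' processed intensity, and -0.34 with offset 50. In the first 2 of these settings 0 of the 35 genes were lower at an unadjusted p under 0.05, so the unadjusted call of Wnt4 was lost.

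Of the other ligands, Wnt8a, expressed in the early streak, was well detected at 9.80, 10.04 and 9.66 in shCtrl and 9.92, 10.04 and 9.06 in shAtad2. The groups were level in replicates 1 and 2, and shAtad2 3 lay below every other array. Its change was -0.16 (SE 0.26) and turned to 0.06 without the third replicates. The other detected Wnt8a probes differed by -0.31 and -0.17. Wnt6 was near background, detected on 3 arrays in all, and differed by -0.11 (SE 0.25). Porcn, the acyltransferase that attaches the lipid Wnt proteins need for secretion, read 9.17, 9.05 and 8.44 in shCtrl and 8.88, 8.82 and 7.84 in shAtad2, which gave differences of -0.29, -0.23 and -0.60 by replicate number. Its change was -0.37 (block SE 0.14, unadjusted p = 0.0290, adjusted p = 0.311), against -0.12 for its second probe. With single arrays left out, the direction turned for Wnt3, Wnt5a, Wnt6 and Wnt8a and held for Wnt3a, Wnt4, Wnt5b and Porcn. The sizes were less steady, from -1.77 to -0.41 for Wnt3a, -1.23 to -0.43 for Wnt5b and -0.60 to -0.036 for Porcn.

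**Figure D2:**
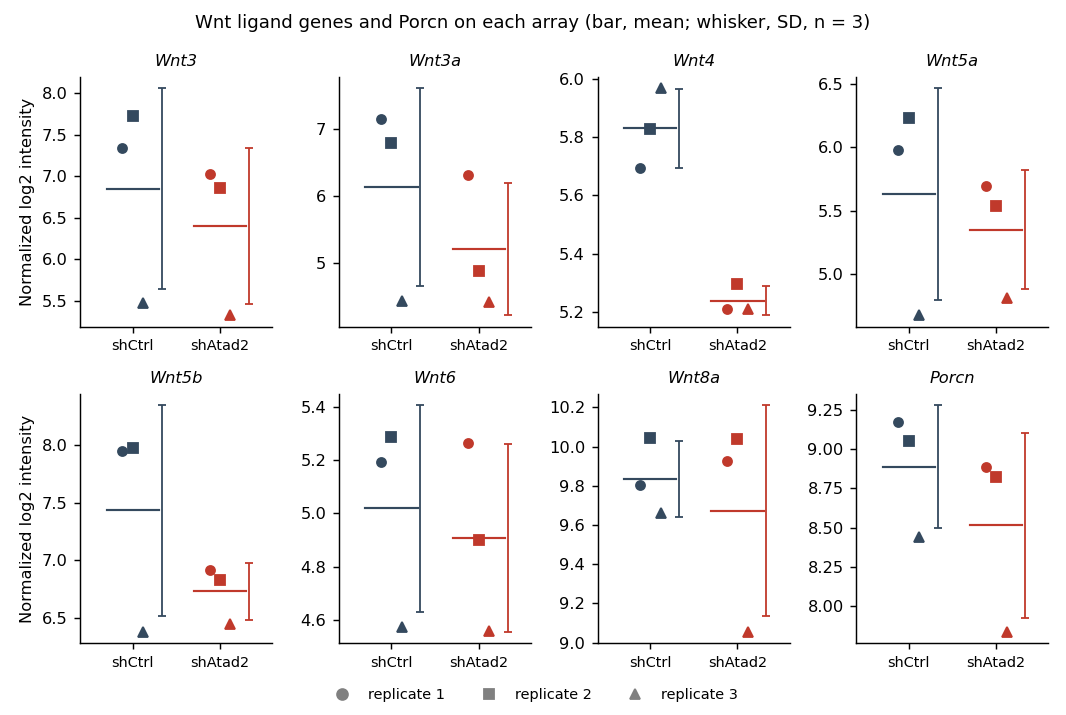
Normalized log2 intensity of 7 Wnt ligand genes and Porcn on each array, shCtrl in dark blue and shAtad2 in red, with a symbol for each replicate number. Horizontal bars are means, whiskers SD over 3 arrays, and each panel has its own vertical axis, which does not start at 0. Wnt4 alone shows groups that do not overlap, and the third replicates (triangles) are the lowest of their group for the other genes.

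Among 3 measured secreted inhibitors, Sfrp1 alone separated the groups. It encodes a soluble Frizzled-like protein that binds Wnt ligands outside the cell. Sfrp1 read 8.04, 8.45 and 8.83 in shCtrl and 9.45, 9.31 and 9.98 in shAtad2. Every shAtad2 array was above every shCtrl array, by 1.41, 0.86 and 1.14 within the replicate numbers. The change of 1.14 (SE 0.25), or 2.20-fold, had an unadjusted p of 0.0019 (adjusted p = 0.343), and the block brought its SE to 0.15 (adjusted p = 0.0643). A second Sfrp1 probe, detected on all 6 arrays, differed by 0.90. Without the third replicates the change was 1.14, and with single arrays left out it lay between 0.94 and 1.34. Sfrp2, a related inhibitor, read 6.74, 7.13 and 7.31 in shCtrl and 6.92, 7.38 and 7.32 in shAtad2, so that the groups overlapped (0.15, SE 0.20, 95% interval -0.31 to 0.61). Notum, an enzyme that strips the lipid from Wnt proteins, was detected on 2 arrays of each group and read 5.72, 6.15 and 4.62 in shCtrl and 6.40, 5.93 and 4.46 in shAtad2 (0.10, SE 0.54). The signs of Sfrp2 and Notum turned when single arrays were left out.

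TCF/LEF factors were measured for 3 of 4 genes, all of them with a positive change. Tcf7l2 read 7.98, 7.81 and 8.28 in shCtrl and 8.63, 8.63 and 8.33 in shAtad2. The groups did not overlap, but the third replicates differed by only 0.04. The change was 0.50 (SE 0.17, unadjusted p = 0.0193, adjusted p = 0.523), and 0.73 without the third replicates. Tcf7l1, the TCF member that represses pluripotency genes in ES cells, read 11.96, 12.08 and 12.44 in shCtrl and 12.43, 12.48 and 12.51 in shAtad2. It was higher in shAtad2 in each replicate number, by 0.47, 0.40 and 0.07, and shCtrl 3 reached the shAtad2 level (0.31, SE 0.16, unadjusted p = 0.0847). Lef1 was dim and level (0.02, SE 0.28), with its direction turning when single arrays were left out.

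Feedback and target genes diverged. Lbh, a transcription cofactor described as a Wnt target in mammary epithelium, read 8.46, 8.09 and 8.94 in shCtrl and 9.20, 9.37 and 10.06 in shAtad2. No overlap remained between the groups, and the third replicates were the highest array of each. Lbh differed by 1.04 (SE 0.28), or 2.06-fold, with an unadjusted p of 0.0065 (adjusted p = 0.436), and with the block the SE was 0.15 (adjusted p = 0.0806). The second Lbh probe differed by 0.97, and the change was 1.01 without the third replicates.

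Sp5, a zinc finger gene switched on directly by beta-catenin, was at 11.53, 11.48 and 9.71 in shCtrl and 11.24, 11.22 and 7.59 in shAtad2. The first 2 replicates of the groups were close, differing by -0.29 and -0.26, while the third differed by -2.12. The mean change of -0.89 (SE 0.98, unadjusted p = 0.390, and block SE 0.34, unadjusted p = 0.0305) was -0.27 without the third replicates (adjusted p = 0.307). Axin2, the Axin paralogue that Wnt signalling induces as a brake on itself, followed the same course, at 10.56, 10.55 and 10.23 in shCtrl and 10.31, 10.34 and 8.85 in shAtad2. Its differences were -0.24, -0.21 and -1.39, a mean of -0.61 (SE 0.38, and block SE 0.23, unadjusted p = 0.0307), and -0.23 without the third replicates (adjusted p = 0.381). With single arrays left out the Axin2 change ran from -0.87 to -0.12 and that of Sp5 from -1.50 to 0.32. For Sp5 and Axin2 the size of the change thus rested largely on the third replicates. Nkd1 (0.07, SE 0.25) and Nkd2 (0.03, SE 0.22), which bind Dishevelled and dampen the signal, did not separate the groups.

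**Figure D3:**
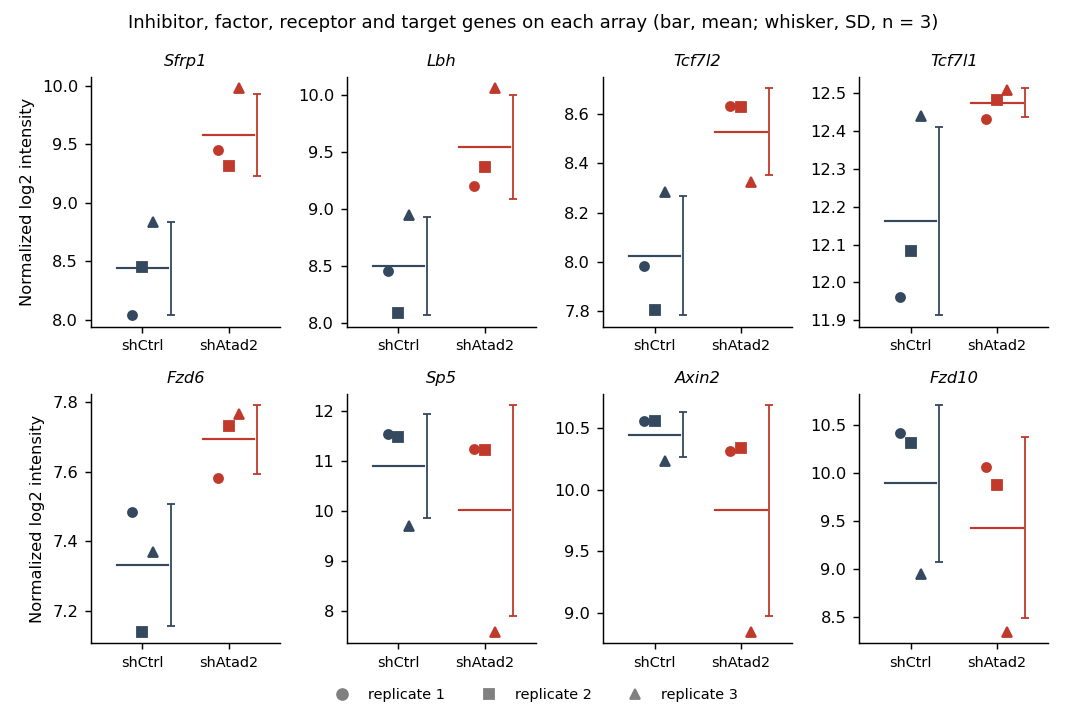
Normalized log2 intensity of 8 further Wnt pathway genes on each array, drawn as in the plot of the ligands (bars are means, whiskers SD over 3 arrays, vertical axes differ and do not start at 0). Sfrp1, Lbh, Tcf7l2 and Fzd6 show no overlap between the groups, while Sp5, Axin2 and Fzd10 have their lowest value on shAtad2 3.

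Promoter sequence is shown for genes low on the third replicates (Sp5, Axin2, Wnt3) and for Lbh, which was high there and in shAtad2. These genes were chosen after the values were seen. The 250 bases before the RefSeq start (GRCm38.p6) are printed, all from the plus strand, at chr2:70474673-70474922 for Sp5, chr11:108920099-108920348 for Axin2, chr11:103773925-103774174 for Wnt3 and chr17:72918055-72918304 for Lbh. Capitals mark the TCF/LEF core followed by 2 bases of A or T, searched on both strands as CTTTGAA or CTTTGAT and, with T as the sixth letter, CTTTGTA or CTTTGTT, words of which only 1 can match at a place.
Sp5: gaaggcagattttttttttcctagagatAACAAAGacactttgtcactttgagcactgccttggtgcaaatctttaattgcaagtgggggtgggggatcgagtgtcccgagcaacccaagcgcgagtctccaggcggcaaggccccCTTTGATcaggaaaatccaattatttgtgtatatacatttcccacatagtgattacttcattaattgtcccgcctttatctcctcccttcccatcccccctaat
Axin2: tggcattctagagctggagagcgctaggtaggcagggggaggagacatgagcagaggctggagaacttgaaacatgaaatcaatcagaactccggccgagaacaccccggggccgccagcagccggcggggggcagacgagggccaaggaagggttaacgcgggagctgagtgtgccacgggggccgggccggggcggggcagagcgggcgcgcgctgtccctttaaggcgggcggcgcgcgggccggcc
Wnt3: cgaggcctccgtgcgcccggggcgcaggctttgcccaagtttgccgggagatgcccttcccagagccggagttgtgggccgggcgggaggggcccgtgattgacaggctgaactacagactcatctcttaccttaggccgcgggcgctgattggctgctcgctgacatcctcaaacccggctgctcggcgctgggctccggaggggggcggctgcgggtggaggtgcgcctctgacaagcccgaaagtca
Lbh: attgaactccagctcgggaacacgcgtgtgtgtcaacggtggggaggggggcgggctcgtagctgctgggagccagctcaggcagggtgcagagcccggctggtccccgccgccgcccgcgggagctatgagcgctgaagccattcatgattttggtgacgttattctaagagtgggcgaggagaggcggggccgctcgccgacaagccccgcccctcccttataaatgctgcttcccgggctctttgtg
The Sp5 window held 2 such matches, AACAAAG beginning 222 bases and CTTTGAT beginning 104 bases before the start, and the other printed windows held 0. The windows of Wnt3a, Fzd10, Wnt6, Nkd1 and Dvl2, also lower on the third replicates in both groups but not printed, held 0 as well. Wnt5b and Lef1, lower there in both groups too, each held 1 match, in 1 of their several windows. Over all 32851 promoter windows of this length, 14.8% held at least 1 match and 1.43% held 2 or more. Promoters were at hand for 30 of the 45 genes, in 39 windows because some genes have several starts, of which 8 (20.5%) held a match, in Fzd7, Sp5, Lef1, Wnt5b, Gsk3a, Wnt11, Dkk1 and Tcf7l2. A match is a run of letters and not a shown binding site. Sfrp1 was not in the table.

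The receptors were mostly level. Fzd6, a Frizzled of planar cell polarity, read 7.48, 7.14 and 7.37 in shCtrl and 7.58, 7.73 and 7.77 in shAtad2, without overlap. Its change was 0.36 (SE 0.15, unadjusted p = 0.0378, adjusted p = 0.583), but its second detected probe differed by 0.05. Fzd10 read 10.42, 10.31 and 8.95 in shCtrl and 10.07, 9.88 and 8.34 in shAtad2. Replicate 3 was low in both groups, and within each replicate number shAtad2 was the lower array (-0.35, -0.43 and -0.61). The change of -0.46 had an SE of 0.53 without the block and 0.13 with it (unadjusted p = 0.0086, adjusted p = 0.194), and its other detected probes differed by -0.45 and -0.41. Direction turned for Fzd10 when shAtad2 3 was left out (0.080), and without the third replicates of both groups the change was -0.39.

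Lrp6, a co-receptor, read 6.27, 5.82 and 5.73 in shCtrl and 5.84, 6.04 and 4.74 in shAtad2, a change of -0.40 (SE 0.34), with shAtad2 3 below every other array. Its differences by replicate number were -0.43, 0.22 and -0.99, and the change was -0.11 without the third replicates. Fzd2, Fzd3, Fzd5, Fzd7, Fzd8 and Lrp5 differed by -0.07 to 0.07. Their 95% intervals were wide, from -0.24 to 0.38 for Fzd2 and from -0.47 to 0.53 for Fzd7, a receptor of undifferentiated ES cells, so that moderate differences cannot be told from none. Fzd7, Fzd5, Fzd2 and Fzd6 each had their highest reading on shAtad2 3 (10.25, 9.21, 8.39 and 7.77). The same held outside the receptors for Sfrp1, Lbh, Tcf7l1, Ctnnb1 and Nkd2.

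Cytoplasmic relay genes differed by -0.22 to 0.08. Ctnnb1, which encodes beta-catenin, read 12.46, 12.26 and 12.49 in shCtrl and 12.39, 12.49 and 12.58 in shAtad2, a change of 0.08 (SE 0.14, 95% interval -0.23 to 0.39). The change was -0.05 for Apc and 0.07 for Axin1, scaffolds of the destruction complex, and 0.01 for the kinase gene Gsk3b. Gsk3a, the other Gsk3 gene, was lower on every shAtad2 array (5.59, 5.43 and 5.42, against 5.62, 5.71 and 5.78 in shCtrl), by a small margin (-0.22, SE 0.13, unadjusted p = 0.123). The Dishevelled genes Dvl1 (-0.11, SE 0.21) and Dvl2 (-0.06, SE 0.19) overlapped between the groups. The other kept probes of Axin1, Dvl1, Fzd3 and Fzd5 had the opposite sign to the brightest one, and of the 3 other Ctnnb1 probes 1 did (-0.045, against 0.072 and 0.18). For the other 10 genes with several kept probes all signs were alike.

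Across the set, replicate 3 stood off from the others in many genes. On these arrays 18 of the 35 genes lay below the mean of the other replicates in both groups, against 32.6% of all genes, and 5 of the 35 (Wnt3, Wnt3a, Fzd10, Notum and Sp5) lay at least 1 log2 unit lower in both, against 0.864% of all genes. Measured from the mean of replicates 1 and 2, the shift of Sp5 was -1.79 in shCtrl and -3.64 in shAtad2. For Wnt3a the shifts were -2.55 and -1.19. Lbh and Sfrp1 lay higher on both, by 0.67 and 0.77 for Lbh and by 0.59 and 0.59 for Sfrp1. Over the 35 genes the shifts of the 2 groups correlated (Pearson 0.73, Spearman 0.73), and over all 10072 genes they did so at 0.58 and 0.46. The genes share arrays and are not independent, so these are descriptions. Of the 12 genes with an unadjusted p under 0.05 in the blocked fit, 7 did not reach it without the block, namely Wnt3, Wnt3a, Wnt5b, Porcn, Fzd10, Sp5 and Axin2, and all 7 lay lower on replicate 3 in both groups. A gene gains from the block where replicate numbers shift alike in both groups, so a shared shift in these 7 follows largely from their selection.

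**Figure D4:**
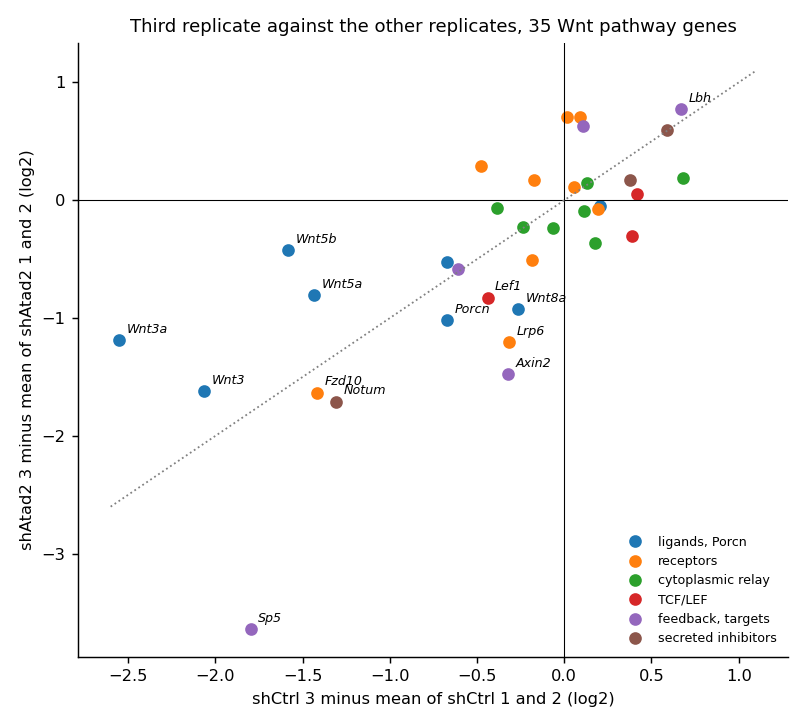
Shift of the third replicate against the mean of replicates 1 and 2 (log2) for 35 Wnt pathway genes, in shCtrl on the horizontal axis and in shAtad2 on the vertical axis, coloured by role. The dotted line marks equal shifts. Wnt3, Wnt3a, Fzd10, Notum and Sp5 lie at or below -1 on both axes, and Axin2 lies far below the line (-0.32 in shCtrl, -1.48 in shAtad2).

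Markers of cell types that such cultures can form differed as well. Of 10 measured primitive streak and mesoderm genes 9 were lower in shAtad2, with a summed log2 level of 11.4 to 12.6 against 12.5 to 13.1 in shCtrl and the lowest value of each group on replicate 3. T and Msgn1 had no probe with their symbols here, and Mesp2, Hand1, Kdr and Msx2 were under the detection filter. All 6 measured trophectoderm genes, Eomes being on both lists, were lower (11.0 to 11.8 against 11.5 to 12.2), with Elf5 and Hand1 under the filter. Of 6 measured neurectoderm genes 5 were higher (12.1 to 12.5 against 11.6 to 11.9), with Sox1, Pax6, Hes5, Pax3 and Nkx6-1 under the filter. Their mean log2 level overlapped between the groups (8.05 to 8.74 in shAtad2, 7.13 to 8.07 in shCtrl). By mean log2 level the fibroblast list alone kept the groups apart. Of 5 measured endoderm genes 4 were lower (9.13 to 9.19 against 9.18 to 9.74), with Gata4, Sox17, Foxa2, Afp, Sox7 and Ttr under the filter. All 4 measured fibroblast genes were higher (11.4 to 11.6 against 11.0 to 11.1), while Col1a1, Col1a2, Col3a1, Lum, Postn and S100a4 were under the filter. The fibroblast gene Dcn was detected on 3 shAtad2 arrays and 1 shCtrl array, and the endoderm gene Foxa1 on 1 shAtad2 array and 3 shCtrl arrays. Each met the filter through the group where it was higher, so its direction in these counts carries no weight. The summed and mean levels of the fibroblast and endoderm lists include these genes, and levels without them were not computed. The part of cell composition in the Wnt results was not tested, and in bulk RNA fewer cells of a type and less RNA per cell cannot be told apart.

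The wider pathway was read from a list of 106 further Wnt genes, of which 66 were measured. By limma 0 of them passed after adjustment, with or without the block, and 7 of the 66 were higher (4.12% of all genes) and 2 lower (3.8% of all genes) at an unadjusted p under 0.05. Among ligands and agonists, 14 of 18 were under the filter. Wls, the carrier that brings Wnt proteins to the cell surface, read 8.45, 7.86 and 7.44 in shCtrl and 7.11, 7.39 and 7.35 in shAtad2 (-0.64, SE 0.25, unadjusted p = 0.0351). Every shAtad2 array lay below every shCtrl array, though by little in the third replicate. The agonist gene Rspo3 differed by -0.22 (SE 0.55). Among receptors the planar polarity genes Celsr1 (0.82, SE 0.18, detected on 1 shCtrl array) and Prickle2 (0.74, SE 0.16) were higher on all shAtad2 arrays, Prickle2 reading 7.32, 7.31 and 7.32 against 6.82, 6.30 and 6.61. Both had an adjusted p of 0.329 by limma, and 0.108 with the block. Celsr1, detected on 3 shAtad2 arrays, met the filter through the group where it was higher. Its direction, and its place among the 7 higher genes, therefore carry no weight.

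Cxxc4, which encodes a Dishevelled-binding inhibitor, read 6.38, 6.19 and 6.06 in shCtrl and 6.74, 7.41 and 6.89 in shAtad2, a change of 0.80 (SE 0.20, adjusted p = 0.389), and the casein kinase gene Csnk1g3 differed by 0.36 (SE 0.14). Both genes separated the groups. Among secreted inhibitors Dkk3 was higher by 0.41 (SE 0.15), and Frzb, a relative of Sfrp1, differed by -0.19 (SE 0.27). Frzb was detected on 1 shAtad2 array and 3 shCtrl arrays. It met the filter through the group where it was higher, so its direction carries no weight. Nuclear cofactors showed small changes, the leading ones being Bcl9l (-0.24, SE 0.12) and Hipk2 (-0.38, SE 0.22). Of 13 measured further target genes 9 were lower, Cdx1, a caudal homeobox gene of the posterior embryo, differing by -0.65 (SE 0.34, and block SE 0.14, adjusted p = 0.120), while the cell cycle gene Ccnd1 differed by 0.31 (SE 0.19).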

How the data were processed

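Total RNA of 6 samples, 3 per group, was read on MouseWG-6 v2.0 beadchips. For every probe the authors deposited its intensity before normalization and a detection p-value, together with a second table of processed intensity whose columns share 1 distribution (median 141.1), which was used as an alternative. The sources used here do not name the scanner software. Here neqc (limma 3.58.1, R 4.3.3) corrected the unnormalized values by normexp, added 16 as offset, applied quantile normalization and took log2. The offset and leftover background understate changes of dim probes. Probes detected (p under 0.05) on at least 3 of the 6 arrays were kept, 18085 of 45281. Of all probes, 34885 had 1 gene symbol, 18 had several and 10378 had none here. For 34807 of those with 1 symbol, the symbol was taken by Entrez identifier from the GRCm38.p6 gene table, whether or not it differed. The brightest kept probe stood for each of 10072 genes.

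Groups were compared by limma (lmFit and eBayes, two-sided) with Benjamini-Hochberg adjustment over all 10072 genes. The fits were tried on simulated data with independent noise on each array. Those data held no shift shared by the third replicates, so they cannot vouch for the blocked fit where such a shift is present. Deviations from the group means correlated between same-numbered arrays at 0.30, 0.29 and 0.58. However, shAtad2 1 with shCtrl 2 (0.30) and shAtad2 2 with shCtrl 1 (0.34) were as close as the same-numbered arrays of replicates 1 and 2. Because the groups share replicate numbers, results blocked on replicate number are given beside those without the block. Alternatives covered background correction, normalization, offset, probe filter, choice of probe, the authors' processed values, each array left out and the third replicates left out. The members and gene lists were chosen with earlier results of these data known. All members were named. Of the other Wnt genes, the 2 with the smallest p in each list were named, besides Atad2. Promoter sequence is from RefSeq (GRCm38.p6).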

Additional observations from a re-analysis of the deposited data

How the results depend on the processing

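In the alternatives run, 0 of the Wnt pathway genes tested (27 to 44 by setting) and 0 of the further Wnt genes tested (57 to 101) passed the adjusted threshold. Over all genes, 1 passed without background correction, 1 with the authors' processed intensity, 1 with offset 50, 10 with the replicate block and 3 without the third replicates, against 0 otherwise. The median change of the Wnt pathway genes was -0.017 without background correction and 0.022 when detection on all 6 arrays was required, which leaves 27 of the 35, and lay between -0.13 and 0.048 when arrays were dropped 1 at a time. Background correction, normalization and offset turned the direction of 0 of the 35, but sizes depended on background. The block cannot turn a direction, since it leaves each change as it is. The filters mostly kept the same probe, so the lack of turns under them was largely fixed beforehand. Without background correction the change was smaller by over 1.5 times for 18 of the 35 (Wnt3a -0.37, Wnt5b -0.43, Lrp6 -0.13 and Wnt4 -0.18 among them), as for 18 on the authors' processed intensity and 8 with offset 50, while Sfrp1 (0.93) and Lbh (0.86) were less affected. The mean of all kept probes turned Fzd3 (-0.053), Fzd5 (0.096), Axin1 (-0.053) and Dvl1 (0.14). Leaving out the third replicates turned Wnt8a (0.059), Fzd2 (-0.048), Fzd7 (-0.20), Apc (0.012), Dvl1 (0.058) and Nkd2 (-0.15). With single arrays left out, 13 of the 35 kept their direction, among them Sfrp1, Lbh, Tcf7l2, Tcf7l1, Fzd6, Wnt4, Wnt3a, Wnt5b, Axin2 and Porcn. The change ran from -1.13 to 0.095 for Wnt3, -0.76 to 0.021 for Wnt5a, -0.33 to 0.063 for Wnt6, -0.35 to 0.15 for Wnt8a, -0.069 to 0.20 for Fzd3, -0.27 to 0.081 for Fzd5, -0.20 to 0.22 for Fzd7, -0.23 to 0.14 for Fzd8, -0.94 to 0.080 for Fzd10, -0.14 to 0.15 for Lrp5, -0.65 to 0.00033 for Lrp6, -0.0064 to 0.15 for Axin1, -0.014 to 0.29 for Sfrp2, -0.25 to 0.29 for Lef1, -0.13 to 0.033 for Apc, -0.10 to 0.13 for Gsk3b, -0.28 to 0.12 for Dvl1, -0.19 to 0.11 for Dvl2, -0.14 to 0.28 for Nkd1, -0.18 to 0.25 for Nkd2, -0.34 to 0.67 for Notum and -1.50 to 0.32 for Sp5. Leaving out 1 array parts a pair of replicate numbers. The cause of these turns was not tested. Dim probes (8 of the 35 were detected on 3 to 5 arrays) limit the size of a change that can be read.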
